A study of Mus musculus with 24 samples.

Results

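Aminoacyl-tRNA synthetases were followed in the messenger RNA of mouse brain after induction of a Polr3a mutation. The group holds 39 of the 54532 genes in the deposited count tables, taken by gene name from both tables. Of these, 23 make up the cytosolic set, which includes the scaffold proteins Aimp1, Aimp2 and Eef1e1, and 16 make up the mitochondrial set, whose names end in 2 (Aimp2 excepted). All 39 were found and all passed the filter on low counts in every comparison. The mice were C57BL/6J and either Polr3a mutant or wild type, and every mouse, wild types included, received tamoxifen, with recombination induced at postnatal day 28 (P28). The protein of Polr3a is the largest part of RNA polymerase III, the enzyme that transcribes transfer RNA (tRNA) genes. PolyA-enriched libraries formed 6 groups of 4: mutant and wild type cerebrum at P42 (2 males and 2 females each), mutant cerebellum at P42 (2 and 2), wild type cerebellum at P42 (3 males and 1 female), and mutant and wild type cerebrum at P75 (males only). The labels name neither a Cre driver nor the cells in which recombination took place, and they do not say whether wild types carried a recombinase. They also do not say that each library came from a separate animal, so p-values measure the spread between libraries.

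Each synthetase joins 1 amino acid to its tRNAs before the ribosome uses them, except Eprs, which serves both glutamate and proline. Cytosol and mitochondria mostly use separate enzymes, and all of them are encoded in the nucleus; Gars and Kars are known to supply both compartments. In the cytosol, Dars, Eprs, Iars, Kars, Lars, Mars, Qars and Rars are held with the 3 scaffold proteins in the multisynthetase complex. Many cytosolic synthetase genes are known targets of ATF4, which carries out the transcriptional part of the integrated stress response and binds C/EBP-ATF response elements. A textbook list of 12 such genes (Aars, Cars, Eprs, Gars, Iars, Lars, Mars, Nars, Sars, Tars, Wars and Yars) is called ATF4-linked here, and Dars, Farsa, Farsb, Hars, Kars, Qars, Rars and Vars are the other cytosolic enzymes.

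The core letters of that element, TGATGNAA, were searched on both strands from 250 bases before to 50 bases after the gene starts in RefSeq (GRCm38.p6), because the members that moved together at P75 are mostly ATF4-linked. Of the 39 members, 30 had an entry, and Cars, Hars, Hars2, Lars, Nars, Pars2, Rars, Vars and Wars had none. The core stood in 5 of 16 cytosolic and 0 of 14 mitochondrial entries, against 4.51% of the 27025 genes with an entry. The windows below read the element 5′ to 3′ with its 8 letters in capitals. They come from the 5 genes that hold it (Aars, Gars, Iars, Tars and Yars). All 5 are among the 8 with an entry that rose in mutant cerebrum at P75, which is why they are shown. None of the 22 other members with an entry holds it, and 14 of these are mitochondrial. The 8 are also all of the ATF4-linked genes with an entry. Having risen and being on that list therefore cannot be told apart here.
Aars: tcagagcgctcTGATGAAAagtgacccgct
Gars: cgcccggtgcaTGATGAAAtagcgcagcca
Iars: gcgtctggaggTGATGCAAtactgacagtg
Tars: agctaaccagcTGATGCAAcgggactcctg
Yars: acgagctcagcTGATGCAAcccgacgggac
The windows lie at chr8:111033840-111033869 (Aars, plus strand gene), chr6:55037960-55037989 (Gars, plus), chr13:49682126-49682155 (Iars, plus), chr15:11399655-11399684 (Tars, minus) and chr4:129189895-129189924 (Yars, plus). In these windows the element reads on the strand of the gene in Yars and on the opposite strand in the others. Positions were counted from the RefSeq start along the strand of the gene, with bases before it negative. In the windows shown the element began at 9 in Aars, -30 in Gars, -15 in Tars, 7 in Iars and 3 in Yars. In Aars, Gars, Tars and Iars this base pairs with the last capital letter printed. Of the other motifs searched on both strands, the core of the interferon-stimulated response element stood in 1 member (Qars; 3.99% of all genes), and TTCNNNGAA, the gamma-activated site, in 4 (Aars, Kars, Eef1e1 and Nars2; 9.55% of all genes). None of these matches overlaps a response element core. These matches describe letters, not bound sites.

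Libraries held 13832721 to 23175864 counts, and the lowest count of any member in any library was 59 (Pars2). In wild types, 5 of 5 cerebrum markers were higher in cerebrum and 6 of 6 cerebellum markers higher in cerebellum. Some libraries at P42 stood apart. Mutant cerebrum replicates 3 and 4 had a cerebrum marker level of -3.46 and -2.68 on the log2 scale against -0.29 to 0.57 in wild types, and levels of 11 markers of thalamus and deep regions were 1.28 to 2.61 in the 4 mutants against -0.72 to 0.58 in wild types. In the same mutants the choroid plexus level was -2 to -0.56 (5 of 7 markers lower at an unadjusted edgeR p under 0.05) against -0.60 to 0.97. The microglia level was -0.42 to -0.23 (4 of 7 lower) against -0.20 to 0.16, and the oligodendrocyte level 0.26 to 0.83 (4 of 5 higher) against -0.27 to 0.31. Of all 18205 genes tested, 1035 were lower and 1264 higher at that threshold. Among these markers edgeR called none and DESeq2 called 2, 2 and 1 (1.41% of all genes). In cerebellum, choroid plexus markers were at -4.04 in mutant cerebellum replicate 1, -1.26 to -0.91 in the other mutants and -0.33 to 0.24 in wild types. The cerebellum marker level was 0.37, -0.73, 0.29 and -1.4 in mutant cerebellum, against -0.37 to 0.24 in wild type cerebellum. Polr3a itself had 30.0 to 33.3 counts per 1000000 (CPM) in mutants and 30.4 to 37.6 in wild types at P75, and the groups overlapped in all 3 comparisons.

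In wild types, the cytosolic genes were the more abundant set. Per kilobase of the gene length in the tables, the only scale on which genes are compared here, the cytosolic medians were 12.5, 12.4 and 12.7 CPM in cerebrum P42, cerebellum P42 and cerebrum P75, and the mitochondrial medians 3.64, 4.81 and 3.78. Nars, which charges asparagine tRNA, had the highest mean in each, at 66.0 ± 6.44, 74.2 ± 3.12 and 77.4 ± 2.92 CPM per kilobase (SD, n = 4). The leucine enzyme of mitochondria, Lars2, was next in both P42 groups, at 42.7 ± 23.5 and 72.5 ± 19.5, and ninth in cerebrum P75, at 16.1 ± 10.5. Its libraries ran from 14.6 to 71.9 in cerebrum P42 and from 55.4 to 96.2 in cerebellum P42, so they overlapped those of Nars in both. Gars (glycine) and Sars (serine) followed at 41.9 ± 3.26 and 35.4 ± 1.86 in cerebrum P75; Hars (histidine), next at 34.6 ± 4.24, overlapped Sars. The last places were held by Pars2 (mitochondrial proline enzyme) in cerebrum P42, at 1.52 ± 0.341, and by Wars2 (mitochondrial tryptophan enzyme) in cerebellum P42 and cerebrum P75, at 1.47 ± 0.111 and 1.29 ± 0.121. Wars2 did not overlap its neighbour Cars2 (cysteine, 1.58 to 1.84) in cerebrum P75, while the last 4 genes of each P42 group overlapped one another.

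**Figure D1:**
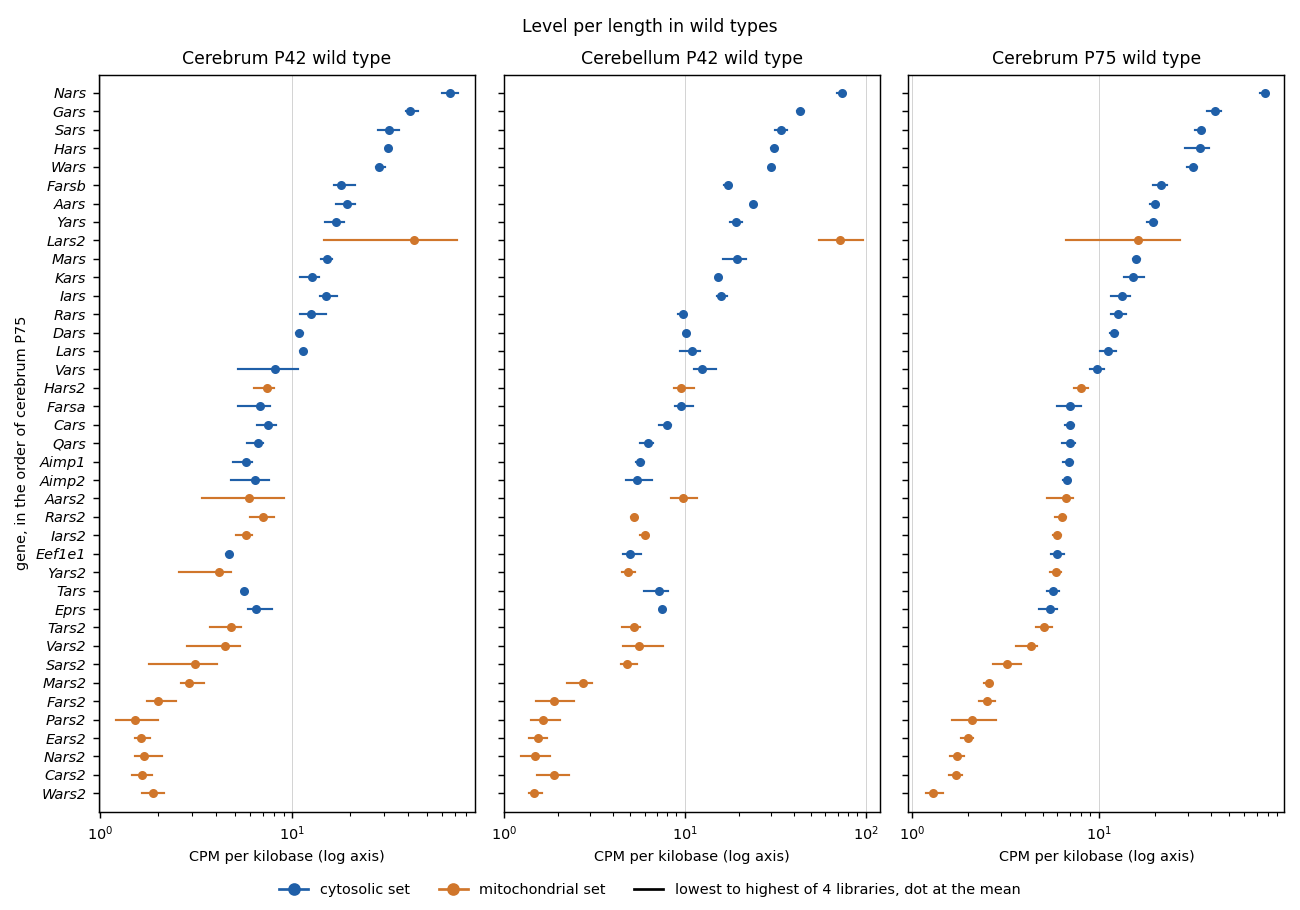
CPM per kilobase (log axis) of the 39 genes in the wild types of each tissue and age; dots are means of 4 libraries and lines run from the lowest to the highest library, blue for the cytosolic and orange for the mitochondrial set. Nars has the highest mean in all 3 panels (66.0, 74.2 and 77.4), and the line of Lars2 runs from 14.6 to 71.9 in cerebrum P42.

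In cerebrum at P75, 12 of 23 cytosolic genes rose in mutants, 1 fell, and 0 of 16 mitochondrial genes passed the test (edgeR's quasi-likelihood F test, Benjamini-Hochberg adjusted p under 0.05 over 17523 genes). Of all genes tested, 14.3% passed, 7.66% of them as higher. The 12 that rose were Aars, Yars, Nars, Tars, Mars, Sars, Iars, Cars, Vars, Eprs, Gars and Lars, with log2 fold changes from 0.77 down to 0.51. In each, the 4 mutants lay above the 4 wild types, as did 10% of all genes. DESeq2, which called 17.6% of all genes, and the authors' deposited table, with 17.8%, called the same 13 members. The median log2 fold change was 0.51 in the cytosolic set and 0.02 in the mitochondrial set, against 0 for all genes. Of the mitochondrial genes, 1 (Sars2) was higher and none lower at an unadjusted p under 0.05 (14.7% of all genes were higher), and DESeq2 called 0. In bulk tissue, fewer cells of a type and less RNA per cell cannot be told apart.

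Aars, the alanine enzyme, had 337, 313, 303 and 314 CPM in the mutants and 185, 174, 193 and 192 CPM in the wild types. Every mutant was far above every wild type. The log2 fold change was 0.77 ± 0.07 (SE; edgeR adjusted p = 6.2e-06). Nars had 352, 340, 317 and 335 CPM in mutants against 193, 203, 208 and 210 in wild types, again with a wide gap between the groups (0.73 ± 0.07, edgeR adjusted p = 9.1e-06). Yars, the tyrosine enzyme, had 194, 193, 183 and 203 CPM against 110, 107, 121 and 121 (0.75 ± 0.07, edgeR adjusted p = 1.0e-05). Sars, the serine enzyme, had 295, 275, 283 and 300 CPM against 185, 168, 187 and 188 (0.67 ± 0.07, edgeR adjusted p = 1.8e-05). In these 4 genes the groups did not overlap.

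The other ATF4-linked genes that rose had the same pattern. Tars (threonine) rose from 33.5 ± 2.13 to 53.9 ± 4.51 CPM, Mars (methionine) from 54.3 ± 2.39 to 87.1 ± 7.65, and Iars (isoleucine) from 70.1 ± 6.79 to 109 ± 5.50 (SD, n = 4 each). Cars (cysteine) rose from 46.1 ± 2.50 to 71.1 ± 2.70 CPM, and Eprs (glutamate and proline) from 98.9 ± 8.93 to 146 ± 13.3. Gars rose from 131 ± 10.2 to 187 ± 8.08 CPM and Lars (leucine) from 43.2 ± 4 to 61.2 ± 2.90. Their log2 fold changes were 0.69, 0.69, 0.65, 0.63, 0.56, 0.52 and 0.51 in this order, each with an SE of 0.07 to 0.09 and an edgeR adjusted p between 6.1e-05 and 0.00118. In all, 11 of the 12 ATF4-linked genes rose.

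The exception was Wars, the tryptophan enzyme. It had 98.5, 107, 112 and 100 CPM in mutants and 115, 102, 108 and 116 CPM in wild types, and the groups overlapped (-0.07 ± 0.07, edgeR adjusted p = 0.557). Wars is also known as an interferon-induced gene. All 12 genes of a list of interferon-induced genes rose in the same libraries (median 4.24 on the log2 scale). Vars, the valine enzyme, was the gene outside the ATF4-linked list that rose. It had 91.8, 82.7, 82.2 and 79.6 CPM in mutants against 56.9, 50, 52.9 and 59.3 in wild types (0.62 ± 0.08, edgeR adjusted p = 1.3e-04), with no overlap.

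Farsb, the beta subunit of the phenylalanine enzyme, was the member that fell. It had 36.9, 45.9, 42.3 and 38.4 CPM in mutants and 50.8, 57.4, 60.5 and 57.0 CPM in wild types, with all mutants below all wild types (-0.46 ± 0.09, edgeR adjusted p = 0.00343). Of all genes, 6.62% were called lower and 10.2% had all mutants below all wild types. Its partner Farsa, the alpha subunit, had 35.2, 38.2, 41.6 and 37.4 CPM against 31.9, 27.0, 36.5 and 32.4, and did not pass the test (0.26 ± 0.10, edgeR adjusted p = 0.0913). Sgpp2, a sphingolipid phosphatase gene that overlaps Farsb on the other strand by 2315 bases, had 22.4 to 24.4 CPM in mutants and 24.7 to 31.9 in wild types. The strand setting of the counting is not given in the sources used here, so reads of overlapping genes cannot be told apart; 13 of the 39 members overlap an expressed gene on the opposite strand.

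The remaining cytosolic genes did not pass the test at P75. Eef1e1 and Rars (arginine) both had 0.23, Kars (lysine) 0.18, Aimp1 0.15, Hars 0.08, Dars (aspartate) 0.05, and Aimp2 and Qars (glutamine) -0.01 each. By place in the cell, 4 of 11 genes of the multisynthetase complex rose (Eprs, Iars, Lars and Mars), none of them scaffold proteins, and 8 of 12 enzymes outside it rose while 1 fell. Of Gars and Kars, which serve both compartments, Gars rose. Scaling by library size alone, which moved the median of all genes to 0.11, gave 17 higher and 1 lower members (Aimp1, Eef1e1, Farsa, Kars and Rars were added), and 2313 of 2860 called genes were then higher, against 1342 of 2502 in the main test.

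Mitochondrial enzymes showed no common direction at P75: 8 had a log2 fold change above 0 and 8 below. The 4 with the smallest p were Sars2 (serine), Lars2 (leucine), Tars2 (threonine) and Pars2 (proline). Sars2 had 13.7, 11.1, 16.4 and 13.4 CPM in mutants against 11.8, 8.96, 9.14 and 12.7 in wild types, so the groups overlapped (0.36 ± 0.15, edgeR adjusted p = 0.133). Tars2 had -0.17 ± 0.10 (edgeR adjusted p = 0.274) and Pars2 0.28 ± 0.18 (edgeR adjusted p = 0.334). The other 12 lay between Fars2 (phenylalanine) at -0.13 and Wars2 at 0.22. The mitochondrial genome's own protein-coding genes are translated with the tRNAs these enzymes charge. Of these 13, 11 fell (6.62% of all genes did), with a median of -0.67. At P42 none of the 12 tested passed in either tissue, with medians of -0.28 in cerebrum and 0.32 in cerebellum.

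Lars2 was the most variable mitochondrial member. It had 97.5, 81.7, 127 and 144 CPM in P75 mutants and 301, 74.3, 255 and 83.7 in wild types (-0.66 ± 0.36, edgeR adjusted p = 0.239). Wild type replicates 1 and 3 were high and replicates 2 and 4 were within or below the mutant range. Leaving out wild type replicate 1 moved the value to -0.29 and leaving out replicate 2 to -0.92, and without a filter on low counts it was called lower (-0.67, edgeR adjusted p = 1.4e-13). The run without a filter called 3241 genes in all, against 2502 in the main test. Gm26917, a lincRNA entry at the ribosomal RNA precursor locus (chr17:39843013-39846341, mm10) that was picked after its values were seen, had 17.4, 12.4, 26.7 and 29.4 CPM in these mutants and 68.0, 18.2, 59.4 and 13.2 in these wild types. It was high in the same wild type libraries. Over all 24 libraries Lars2 ran from 74.3 to 1070.0 CPM and its ratio to Gm26917 from 4.09 to 12.5; the part of this transcript in the Lars2 values was not tested.

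**Figure D2:**
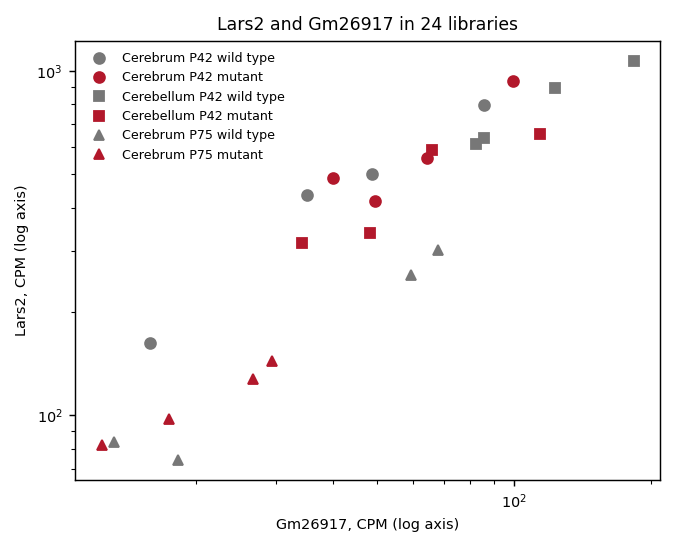
Lars2 against Gm26917 in CPM (both log axes), 1 point per library; grey for wild types, red for mutants, circles for cerebrum P42, squares for cerebellum P42 and triangles for cerebrum P75. The ratio of Lars2 to Gm26917 was 4.09 to 6.58 in cerebrum P75, 8.51 to 12.5 in cerebrum P42 and 5.77 to 9.27 in cerebellum P42.

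**Figure D3:**
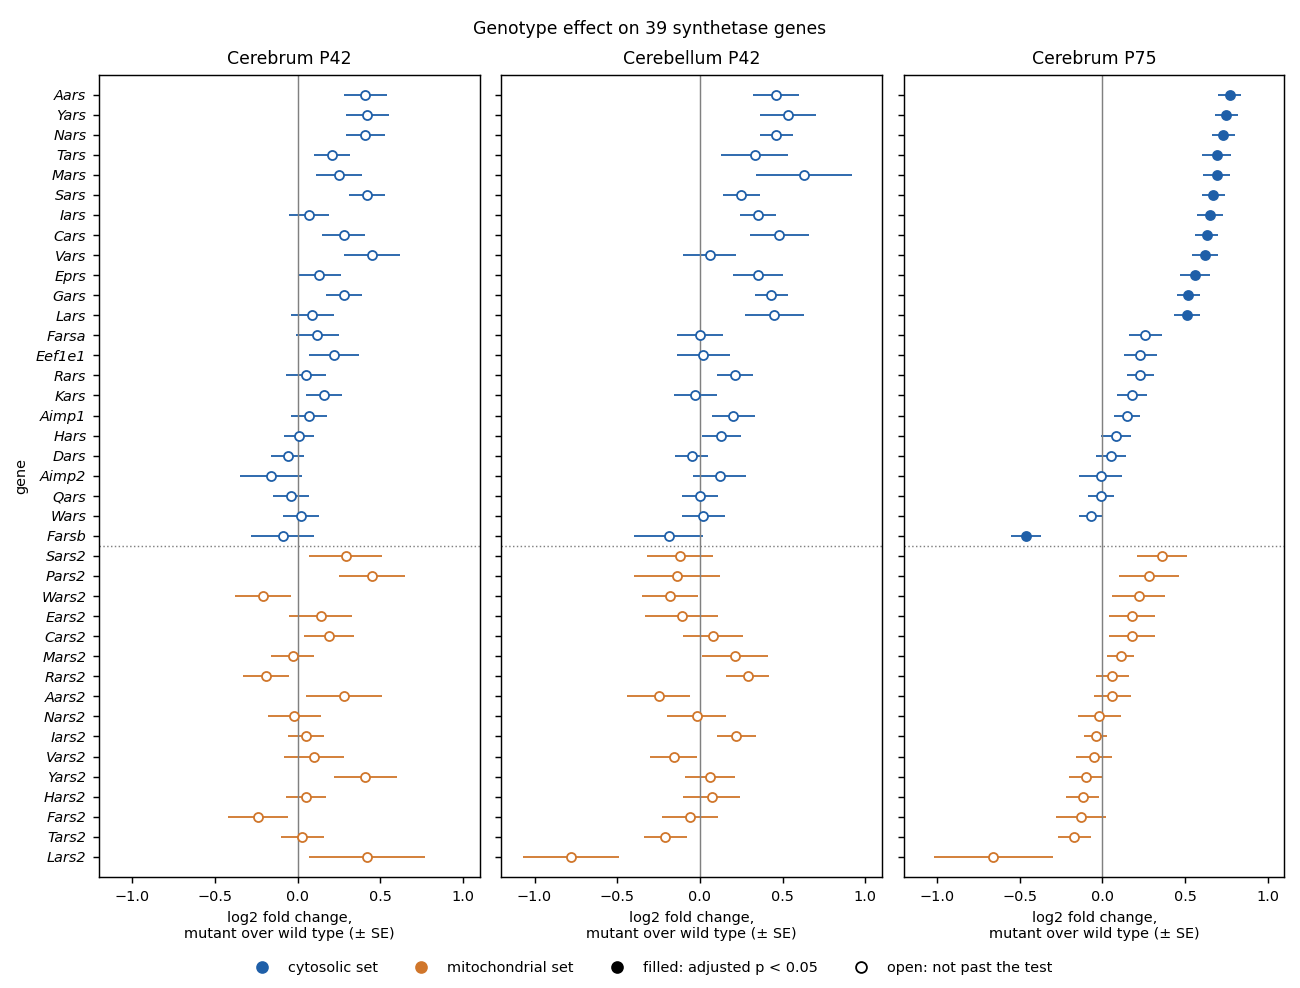
Log2 fold change of mutants over wild types with its SE for the 39 genes in the 3 comparisons, in the order of cerebrum P75; blue is the cytosolic and orange the mitochondrial set, and filled points passed edgeR's test. In the right panel 13 points are filled, 12 to the right of 0 and Farsb to the left, all in the cytosolic set.

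The level of a set in a library is the mean log2 CPM of its genes minus the wild type mean of the same tissue and age. At P75 the cytosolic level was 0.38, 0.40, 0.33 and 0.34 in mutants and -0.04 to 0.06 in wild types. The ATF4-linked level was 0.62, 0.60, 0.52 and 0.59, against -0.04 to 0.06, and the other cytosolic enzymes were at 0.07 to 0.16, against -0.09 to 0.08. The mitochondrial level was -0.07 to 0.09 in mutants and -0.18 to 0.09 in wild types, so these groups overlapped. Cell type markers moved too: the level of 5 neuron markers was -0.60 to -0.24 in mutants and -0.04 to 0.04 in wild types, with 4 of 5 lower, and that of 8 microglia and myeloid markers 0.64 to 1.63 against -0.11 to 0.13, with 6 of 8 higher. The astrocyte level was 1.03, 1.12, 0.40 and 0.34 in mutants against -0.04 to 0.05 (1 of 4 markers higher). The endothelium level was 0.46, 0.37, 0.39 and 0.31 against -0.05 to 0.07 (2 of 3 higher). Of all genes, edgeR called 7.66% higher and 6.62% lower. The oligodendrocyte level was -0.26 to -0.07 in mutants and -0.14 to 0.17 in wild types. Of these 5 markers edgeR called 0, and DESeq2, which called 17.6% of all genes, called 3 lower. The part of all these markers in the synthetase result was not tested. By mutant replicate, microglia levels were 1.55, 1.63, 0.78 and 0.64 and neuron levels -0.60, -0.44, -0.29 and -0.24, beside ATF4-linked levels of 0.62, 0.60, 0.52 and 0.59.

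**Figure D4:**
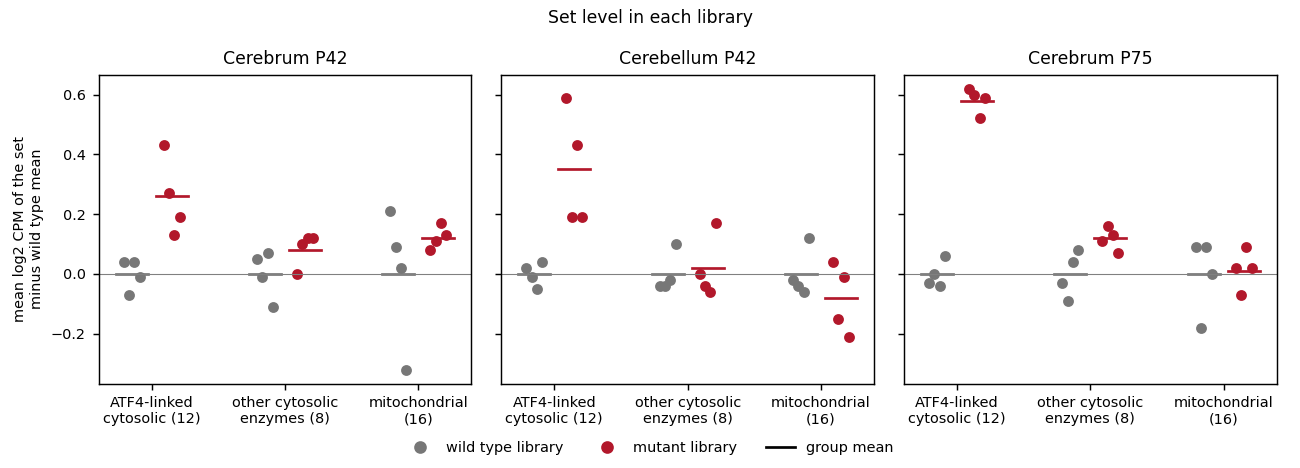
Level of 3 gene sets in each library (mean log2 CPM minus the wild type mean), grey for wild types and red for mutants, with bars at the group means and the number of genes in brackets. ATF4-linked mutants sit at 0.52 to 0.62 in cerebrum P75, 0.13 to 0.43 in cerebrum P42 and 0.19 to 0.59 in cerebellum P42, above the wild types in each panel.

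Related genes at P75 were counted from lists. Of 24 tested genes of the integrated stress response, 23 rose, with a median of 0.95; the 4 with the smallest p were Slc7a3, a cationic amino acid transporter (1.38 ± 0.09), Shmt2, the mitochondrial serine hydroxymethyltransferase (1.54 ± 0.10), Ddit3, the transcription factor CHOP (1.80 ± 0.12), and Sesn2, a stress-induced regulator of growth signalling (2.17 ± 0.15). Of 22 genes of tRNA maturation and export, 2 rose (7.66% of all genes did) and none fell: Xpot, the tRNA export receptor, went from 113.0 to 160.4 CPM (0.51 ± 0.08, edgeR adjusted p = 9.7e-04), and Rtcb, the tRNA splicing ligase, had 0.31 ± 0.09 (edgeR adjusted p = 0.0311). Rpp30 and Pop1, subunits of RNase P, which trims tRNA precursors, had 0.37 and 0.24 and did not pass. Of 9 elongation factors that bring charged tRNAs to the ribosome or move it, 1 fell (6.62% of all genes did), the neuronal form Eef1a2 (-0.38 ± 0.07, edgeR adjusted p = 0.00241), while Eef1a1 had -0.01. None of 4 genes of mitochondrial transamidation and initiator formylation (Gatb had 0.23 and Mtfmt -0.19) and none of 10 synthetase-like and editing genes (Tarsl2 had -0.17) passed the test; at an unadjusted p under 0.05 these lists had 0 and 1, and DESeq2 called 0 in both.

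In cerebrum at P42, 14 days after tamoxifen, no member passed the test (edgeR, 18205 genes, of which 0.0165% passed). Sars was called by DESeq2 (adjusted p = 0.0177; 1.41% of all genes were called), and the authors' deposited table, with 1.16% of its genes called, called none. At an unadjusted p under 0.05, 6 cytosolic genes (Sars, Nars, Yars, Aars, Vars and Gars) and no mitochondrial gene were higher and none lower, against 6.94% of all genes higher. All mutants lay above all wild types for 6 cytosolic genes (Aars, Gars, Nars, Sars, Tars and Yars) and for Yars2, against 3.55% of all genes. The medians were 0.13 for the cytosolic and 0.07 for the mitochondrial set, against 0.01 for all genes. Their difference of 0.06 was -0.03 without wild type replicate 2, 0.19 without wild type replicate 4 and 0.01 without mutant replicate 1, and the mitochondrial median was 0.13 without wild type replicate 2 and 0 without replicate 4.

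Sars had 249, 207, 216 and 205 CPM in these mutants and 181, 146, 183 and 143 in wild types (0.42 ± 0.11, edgeR adjusted p = 0.324). Nars had 257, 243, 212 and 218 CPM against 186, 161, 191 and 157 (0.41 ± 0.12, edgeR adjusted p = 0.34). For both, the lowest mutant stood above the highest wild type. Yars had 0.42 ± 0.13, Aars 0.41 ± 0.13, Gars 0.28 ± 0.11, Cars 0.28 ± 0.13, Mars 0.25 ± 0.14, Tars 0.21 ± 0.11 and Kars 0.16 ± 0.11. Without mutant replicate 1, Mars had 0.11 and Cars 0.18, and without wild type replicate 2 Kars had 0.10. Vars had the highest cytosolic value, 0.45 ± 0.17, with 59.4 to 63.3 CPM in mutants and 60.2, 41.7, 50.8 and 29.0 in wild types; wild type replicate 4 was low and replicate 1 was within the mutant range. Without replicate 4 the value was 0.29. All 12 ATF4-linked genes had a value above 0 (51.4% of all genes did), with a median of 0.26, against 0.03 for the other cytosolic enzymes.

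Of the mitochondrial enzymes at P42 in cerebrum, Pars2 (0.45 ± 0.20), Yars2 (tyrosine, 0.41 ± 0.19), Fars2 (-0.24 ± 0.18) and Rars2 (arginine, -0.19 ± 0.14) had the smallest p, all with an edgeR adjusted p of 0.397 or more. Yars2 had 16.9, 15.8, 18.5 and 18.2 CPM in mutants and 14.7, 15.1, 14.4 and 8.05 in wild types. Here too wild type replicate 4 was low (0.23 without it), and the mitochondrial level of that library was -0.32 against 0.02 to 0.21 in the other wild types and 0.08 to 0.17 in mutants. The cytosolic minus mitochondrial level overlapped between mutants (-0.05 to 0.14) and wild types (-0.18 to 0.27). The ATF4-linked level was 0.43, 0.27, 0.13 and 0.19 in mutants, beside deep-region marker levels of 1.28, 1.86, 2.61 and 2.53. In wild types the ATF4-linked level was -0.07 to 0.04. The integrated stress response level was 0.80, 0.59, 0.34 and 0.63 in mutants against -0.39 to 0.26 in wild types. Of the 23 tested genes of that list, edgeR called 0 and DESeq2 called 4 as higher (1.41% of all genes were called). With the deep-region level as a covariate, 0 members were called, the mitochondrial median moved from 0.07 to 0.29 and Kars turned from 0.16 to -0.12. The deep-region level did not overlap between mutants and wild types (-0.72 to 0.58), so this fit cannot cleanly separate it from genotype.

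In cerebellum at P42, no member passed edgeR's test either (17616 genes, of which 0.0114% passed). Nars was called by DESeq2 (adjusted p = 0.0293; 0.233% of all genes were called). It was also called in the authors' deposited table (log2 fold change 0.46, adjusted p = 0.00312; 0.1% of its genes were called). At an unadjusted p under 0.05, 9 cytosolic genes and Rars2 were higher and Lars2 was lower, against 2.22% of all genes higher and 2.43% lower. Mutants lay above wild types without overlap for 8 cytosolic genes (Aars, Eprs, Gars, Iars, Nars, Rars, Sars and Yars) and for Rars2, against 1.66% of all genes. The median was 0.21 in the cytosolic and -0.09 in the mitochondrial set, against 0.01 for all genes.

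Nars had 272, 248, 264 and 287 CPM in mutant cerebellum and 200, 184, 202 and 194 in wild types, with a clear gap (0.46 ± 0.10, edgeR adjusted p = 0.727). Gars had 189, 174, 161 and 189 CPM against 132, 135, 142 and 130, also without overlap (0.43 ± 0.10, edgeR adjusted p = 0.767). Aars, Yars and Mars were highest in mutant replicates 1 and 3. Aars had 360.0, 245, 315 and 285 CPM against 214 to 228 (0.46 ± 0.14), and Yars 210.0, 138, 171 and 131 against 106 to 123 (0.53 ± 0.17). Mars had 147, 71.3, 129 and 58.0 CPM against 55.7 to 75.1 (0.63 ± 0.29, edgeR adjusted p = 0.967), so its 2 low mutants were within the wild type range. Ddit3, which overlaps Mars on the other strand by 68 bases, had 47.8, 21.2, 42.3 and 17.3 CPM in the same libraries and 16.4 to 20.7 in wild types.

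Cars (0.48 ± 0.18), Lars (0.45 ± 0.18), Iars (0.35 ± 0.11), Eprs (0.35 ± 0.15) and Sars (0.25 ± 0.11) complete the cytosolic genes with the smallest p in cerebellum. All 12 ATF4-linked genes were above 0 (51.9% of all genes were), with a median of 0.44, and the median of the other cytosolic enzymes was 0. The ATF4-linked level was 0.59, 0.19, 0.43 and 0.19 in mutants against -0.05 to 0.04 in wild types, and the integrated stress response level was 1.21, 0.06, 0.74 and 0.14 against -0.03 to 0.10. Replicates 1 and 3 were high in both. The cerebellum marker level of these mutants was 0.37, -0.73, 0.29 and -1.4, also higher in replicates 1 and 3. The level of the mitochondrial genome's own protein-coding genes was -0.18, 0.69, -0.26 and 0.54, lower in replicates 1 and 3. Wild types had -0.37 to 0.24 and -0.27 to 0.20. The part of these marker and mitochondrial levels in the synthetase values was not tested. Mutant replicate 1 was also the library with the lowest choroid plexus level, and with that level as a covariate the values of Mars, Eprs and Lars turned to -0.19, -0.08 and -0.02, those of Aars, Yars and Cars moved to 0.09, 0.07 and 0.07, and the cytosolic median moved from 0.21 to 0.09. The choroid plexus level did not overlap between mutants (-4.04 to -0.91) and wild types (-0.33 to 0.24). This fit therefore cannot cleanly separate that level from genotype. Without replicate 1, Mars, Eprs and Lars had 0.24, 0.14 and 0.22, and Aars, Yars and Cars 0.28, 0.30 and 0.29. Farsb in these mutants was 30.6, 47.5, 28.3 and 52.8 CPM, low in replicates 1 and 3, and 43.2 to 47.3 in wild types.

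**Figure D5:**
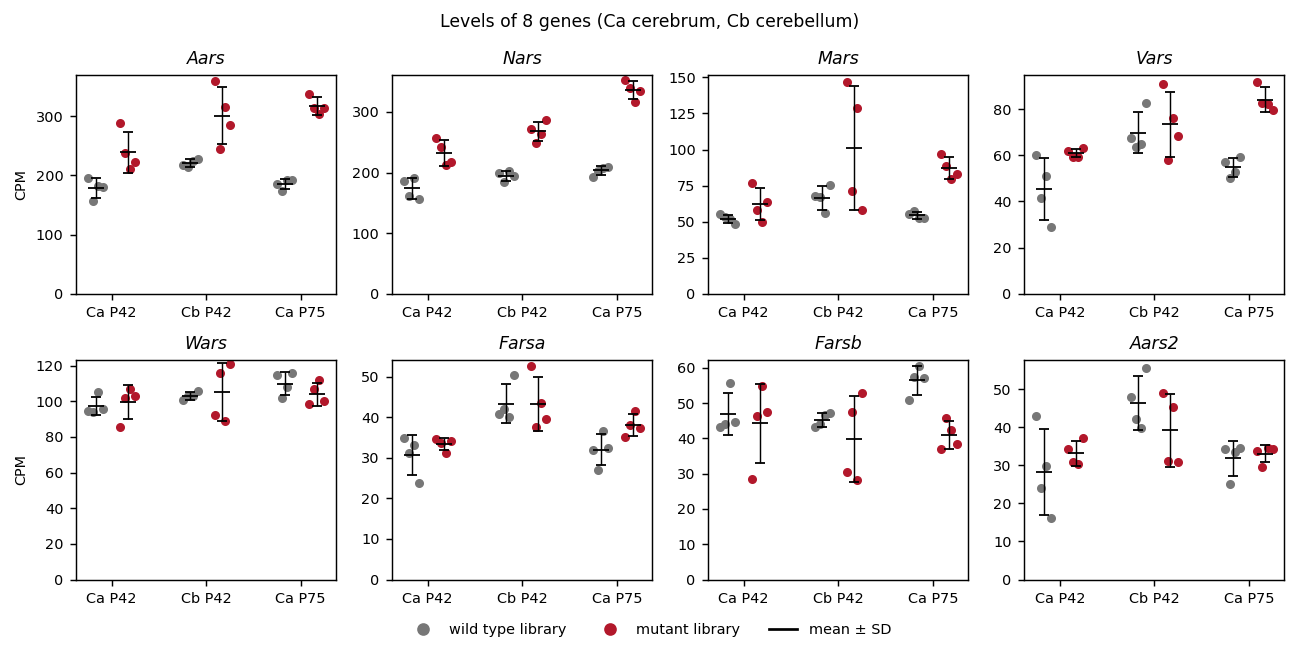
CPM of 8 genes in each library, with mean and SD over 4 libraries, grey for wild types and red for mutants; Ca is cerebrum and Cb cerebellum. Aars and Nars separate mutants from wild types in each of the 3 comparisons, Wars and Aars2 in none, and Farsb is lower in the mutants of cerebrum P75 (36.9 to 45.9 against 50.8 to 60.5).

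Of the mitochondrial enzymes in cerebellum, Lars2 had 656, 317, 588 and 338 CPM in mutants against 614, 639, 894 and 1070.0 in wild types, and the groups overlapped (-0.78 ± 0.29, edgeR adjusted p = 0.967). Its companion Gm26917 had 114, 34.2, 65.9 and 48.3 CPM against 82.3, 85.6, 123 and 183. Rars2 had 19.4, 17.9, 15.8 and 15.8 CPM against 14 to 14.8 and did not overlap (0.29 ± 0.13). Iars2 (isoleucine) had 0.22 ± 0.12 and Tars2 -0.21 ± 0.13. The cytosolic minus mitochondrial level was 0.27, 0.26, 0.21 and 0.41 in mutants and -0.06 to 0.03 in wild types, and the groups did not overlap. This level includes Lars2. The mitochondrial level alone was -0.21 to 0.04 in mutants and -0.06 to 0.12 in wild types. Without Lars2 it was -0.14 to 0.06 and -0.07 to 0.10. The difference of the medians was 0.30, and 0.20 without wild type replicate 4.

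The comparisons were then set against each other as interaction terms. For tissue at P42, no member passed (edgeR; 0% of 19614 genes did), DESeq2 called none (0.0357% of all genes), and 1 member had an unadjusted p under 0.05 (6.18% of all genes did), Rars2, at -0.44 ± 0.19 (cerebrum effect minus cerebellum effect). Lars2 (1.07 ± 0.53) and Pars2 (0.55 ± 0.31) came next. For age in cerebrum, where each age was set against its own wild types, Iars passed: its effect was larger at P75 by 0.58 ± 0.14 (edgeR adjusted p = 0.0489; 1.36% of 19273 genes passed). Iars had 91.1, 85.8, 74.3 and 80.3 CPM in P42 mutants against 73.3 to 89.5 in wild types, and 116, 107, 103 and 112 against 61.0 to 76.7 at P75. This call was lost when any 1 of 15 of the 16 libraries was left out (log2 differences of 0.49 to 0.63, adjusted p up to 0.153), and with mutant replicates 3 and 4 of P42 both left out (0.48, adjusted p = 0.231). It was kept without mutant replicate 1 of P42, where 9 members passed. In that fit 1169 genes passed in all, against 263 in the main test. Tars, at 0.48 ± 0.13 (edgeR adjusted p = 0.0904), was called by DESeq2 together with Iars (3.48% of all genes were called). At an unadjusted p under 0.05, 10 cytosolic genes were higher and Yars2 lower, against 7.69% of all genes higher and 6.39% lower.

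Between wild type cerebrum and cerebellum at P42, 3 members differed, 1 higher and 2 lower in cerebrum (edgeR; 30.5% of 17964 genes differed, 16.4% higher and 14.1% lower). This is a smaller share than that of all genes. DESeq2 called 5 (34.1% of all genes), with Aars2 and Mars added as lower. Farsa had 34.9, 31.1, 33.2 and 23.7 CPM in cerebrum and 40.7, 42.1, 40.0 and 50.4 in cerebellum (-0.46 ± 0.15, edgeR adjusted p = 0.0388). Vars had 60.2, 41.7, 50.8 and 29.0 CPM against 67.5, 63.4, 65.0 and 82.8 (-0.57 ± 0.19, edgeR adjusted p = 0.0474). Rars2 had 16.7, 20.5, 18.7 and 22.3 CPM against 14.8, 14.4, 14 and 14.7 (0.42 ± 0.14, edgeR adjusted p = 0.0459). The groups did not overlap for any of them, and 17.7% of all genes had all cerebrum libraries above and 19.1% all below. Farsa and Rars2 kept the call in 2 of 8 fits that each left out 1 library and Vars in 1 of 8; without cerebellum replicate 4 the values were -0.25, 0.31 and -0.22. No member passed without cerebrum replicate 2 or 3 or cerebellum replicate 1, 2 or 4, 1 passed without cerebellum replicate 3, 3 without cerebrum replicate 4 and 5 without cerebrum replicate 1. Scaling by library size alone moved the median of all genes from -0.03 to -0.15 and gave 0 higher and 10 lower members, in place of 1 higher and 2 lower.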

How the data were processed

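The deposited gene tables hold raw read counts per gene, 1 table for P42 and 1 for P75. The submitters' processing notes name HISAT2, DESeq2 and the build mm10, and no source used here gives the counter or its strand setting. The log2 fold changes and adjusted p-values of the authors' deposited comparison tables are quoted only where named. The genes and lists were chosen with earlier results of these data known. Counts were tested with edgeR 4.0.16 (TMM scaling, filterByExpr, quasi-likelihood F test) in R 4.3.3, with sex as a term where both sexes were present, and DESeq2 1.42.0 was an alternative; p-values were Benjamini-Hochberg adjusted over all genes tested. CPM values use the TMM-scaled totals, and set levels add 0.5 CPM before log2. CPM values of P42 and P75 were scaled separately, while the age interaction fit scaled its 16 libraries together. In that fit each age was set against its own wild types. Depth was 13832721 to 23175864 counts per library. The procedure was also run on simulated counts, with an outcome not given here. These were drawn gene by gene, without shifts in tissue or cell type markers like those seen at P42. Values were named for every member past the test or, where fewer than 10 cytosolic or 4 mitochondrial members passed, for those with the smallest p up to these numbers, and for up to 4 genes of each related list. Values of 1 related gene and 1 sequence window are not reported here.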

Additional observations from a re-analysis of the deposited data

Results flagged for a closer look

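Of 120 groups of 4 libraries checked, 7 had 1 library far from the other 3, where chance gives about 1 in 20. Wild type cerebrum P42 had Tars at 32.1 CPM in replicate 1, against 33.5 to 33.6 in the others, and Yars2 at 8.05 CPM in replicate 4, against 14.4 to 15.1. Mutant cerebrum P42 replicate 2 had Fars2 at 7.52 CPM, against 10.4 to 10.6. At P75, Sars was 168 CPM in wild type replicate 2, against 185 to 188, and in mutant replicate 3 Eprs was 126 CPM, against 151 to 154, and Pars2 7.02 CPM, against 8.12 to 8.23. The integrated stress response level of wild type cerebellum replicate 4 was 0.10, against -0.03 in each of the others. Iars differed in its genotype effect between the ages in cerebrum, by 0.58 on the log2 scale (edgeR interaction test), with the exceptions given above.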

How the results depend on the processing

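In cerebrum P75 the 13 called members kept their call and direction under every alternative run, and the cytosolic minus mitochondrial median of 0.49 ran from 0.42 to 0.56 with 1 library left out. Elsewhere counts of called members changed, and the cause was not tested. DESeq2 called 1 member in cerebrum P42, 1 in cerebellum P42, 2 for the age interaction and 5 between wild type tissues. Without a filter on low counts 2 members (Mars and Lars2) were called in cerebellum P42, 1 for the tissue interaction (Lars2), 2 for age and 5 between wild type tissues. Genes called in all were then 153, 279, 1176 and 6360, against 2, 0, 263 and 5472 in the main test. For age, 0 were called with RLE scaling, at an adjusted p under 0.01, in males only and, in an alternative chosen after seeing the data, without mutant replicates 3 and 4 of P42. With 1 library left out the count was 0 to 9, the 9 in a fit that called 1169 genes in all, against 263. Between wild type tissues it was 10 by library size alone, 0 at an adjusted p under 0.01, 7 with no sex term and 0 to 5 with 1 library left out. Genes called in all were 5924 by library size alone and 6293 with no sex term, against 5472. The cerebellum P42 median difference of 0.30 was 0.20 with choroid plexus markers as a covariate and 0.20 to 0.34 with 1 library left out; that covariate moved the cytosolic median from 0.21 to 0.09 and turned Lars to -0.02, Eprs to -0.08 and Mars to -0.19. The deep-region level as a covariate turned Kars to -0.12 in cerebrum P42 and moved the mitochondrial median from 0.07 to 0.29. Both covariate levels separated mutants from wild types without overlap, so these fits cannot cleanly separate them from genotype. The cerebrum P42 median difference of 0.06 ran from -0.03 to 0.19 with 1 library left out. Of the other values under alternatives, for single genes and set medians, 921 kept their direction and side of the threshold or moved by less than the spread, 43 lost a call, 6 gained one, 4 turned sign (named above) and 3 set medians moved further: the 2 under covariates and the cerebellum P42 mitochondrial median, -0.01 without wild type replicate 4 against -0.09. Replicate numbers are shared between groups, but deviations of same-numbered libraries correlated at only 0.01 to 0.28 in cerebrum P42, -0.40 to 0.08 in cerebellum P42 and 0.04 to 0.19 in cerebrum P75, so they were not taken as pairs; at P75 each library correlated best with its own number, a hint from the data. With the replicate block, members called were 0, 0 and 14 (Farsa added), and 3537 genes in all were called at P75, against 2502. With 4 libraries a group, small differences at P42 cannot be told from none.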
